A study of Mus musculus with 16 samples.

Results

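The core cardiac transcription factors are a group of 10 genes, Gata4, Gata6, Nkx2-5, Hand2, Tbx5, Tbx20, Mef2a, Mef2c, Mef2d and Srf. They were chosen by name, with earlier results of these data known, and all 10 were among the 11811 genes listed in the expression table. Transcripts were measured by RNA-seq in 16 left ventricular libraries, 8 from TGAC8 mice and 8 from wild-type (WT) littermates. By the methods of the study, RNA came from 8 animals of each genotype, which matches the 8 libraries of each. TGAC8 mice carry the human ADCY8 cDNA, which encodes adenylyl cyclase type 8, under the murine α-myosin heavy chain promoter, so the transgene is driven in cardiomyocytes. Both genotypes were 3-month-old males of a C57BL/6 background, and the tissue was the free wall of the left ventricle without the septum. The transgene transcript averaged 503 ± 62.2 FPKM in TGAC8 libraries, whereas it was listed at 0 in 7 of 8 WT libraries and at 0.345 FPKM in the remaining WT library (SD, n = 8 each). FPKM counts the sequenced fragments of a gene for its length and for the depth of its library, so levels of different genes can be set side by side.

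These factors bind DNA at enhancers and promoters of heart muscle genes, often side by side and in shared complexes. GATA4, NKX2-5, TBX5 and HAND2 set up the cardiac program in the embryo and keep sarcomere, ion channel and natriuretic peptide genes active in the adult myocyte. MEF2 proteins and SRF are MADS-box factors whose output is set by signal-dependent partners, class II histone deacetylases for MEF2 and myocardin-family coactivators for SRF. Adenylyl cyclase makes cAMP, which activates protein kinase A, and the factor CREB binds the sequence TGACG within cAMP response elements.

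Promoter sequences are shown for the members with a match to TGACG, to the CArG box or to a MEF2 site. RefSeq entries (GRCm38.p6, the same build as the mm10 used for the expression table) were matched for 7 of the 10 members, each spanning 250 bases before to 50 bases after a start site. The start used for Nkx2-5 lies well inside its listed locus (chr17:26838664-26844995, minus strand), not at the outer end. Gata4, Gata6 and Tbx5 are named only. In the sequences, capitals mark TGACG in Hand2, Nkx2-5 and Tbx20. In Srf, capitals mark TGACG and 2 CArG boxes, the element that SRF itself binds, and in Mef2a they mark a MEF2 site.
Hand2 (chr8:57320733-57321032, plus strand): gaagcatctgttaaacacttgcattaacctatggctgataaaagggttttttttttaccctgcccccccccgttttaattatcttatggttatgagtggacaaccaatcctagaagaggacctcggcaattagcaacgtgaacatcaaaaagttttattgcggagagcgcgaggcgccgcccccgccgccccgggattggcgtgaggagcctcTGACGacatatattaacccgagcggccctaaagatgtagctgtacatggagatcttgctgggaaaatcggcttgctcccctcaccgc
Nkx2-5 (chr17:26841516-26841815, minus strand): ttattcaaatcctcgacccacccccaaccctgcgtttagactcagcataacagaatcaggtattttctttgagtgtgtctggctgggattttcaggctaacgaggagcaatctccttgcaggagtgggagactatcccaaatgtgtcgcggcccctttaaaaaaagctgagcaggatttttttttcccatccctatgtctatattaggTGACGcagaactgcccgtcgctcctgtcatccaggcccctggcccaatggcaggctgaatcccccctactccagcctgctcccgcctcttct
Tbx20 (chr9:24774254-24774553, minus strand): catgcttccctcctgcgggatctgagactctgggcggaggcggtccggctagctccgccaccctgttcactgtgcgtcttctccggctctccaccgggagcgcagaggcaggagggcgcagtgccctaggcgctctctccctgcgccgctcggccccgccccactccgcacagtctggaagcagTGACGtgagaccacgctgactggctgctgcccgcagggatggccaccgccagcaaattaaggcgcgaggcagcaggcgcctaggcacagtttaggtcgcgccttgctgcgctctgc
Srf (chr17:46556113-46556412, minus strand): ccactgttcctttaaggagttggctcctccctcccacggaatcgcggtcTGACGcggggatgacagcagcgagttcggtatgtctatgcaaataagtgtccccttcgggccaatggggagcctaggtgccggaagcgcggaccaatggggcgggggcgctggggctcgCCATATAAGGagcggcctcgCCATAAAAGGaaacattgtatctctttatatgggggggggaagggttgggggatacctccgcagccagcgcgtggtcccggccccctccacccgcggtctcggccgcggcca
Mef2a (chr7:67372809-67373108, minus strand): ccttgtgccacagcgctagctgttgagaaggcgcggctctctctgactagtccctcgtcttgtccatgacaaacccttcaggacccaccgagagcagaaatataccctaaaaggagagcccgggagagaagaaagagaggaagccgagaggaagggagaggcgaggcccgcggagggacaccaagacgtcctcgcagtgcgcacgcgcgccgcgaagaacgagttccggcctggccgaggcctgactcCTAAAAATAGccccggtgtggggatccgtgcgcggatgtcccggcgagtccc

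The core TGACG, searched on both strands, was found in 4 of these 7 members, Hand2, Nkx2-5, Tbx20 and Srf, and in 20.8% of 32851 RefSeq promoters of the same length. It began at position -37 relative to the start in Hand2, -42 in Nkx2-5, -66 in Tbx20 and -201 in Srf. These letters were not in the windows of Mef2a, Mef2d or the 3 listed starts of Mef2c. CArG boxes were present in 1.63% of all promoters and MEF2 sites in 0.557%, and the MEF2 site of Mef2a began at position -2, so that it spans the start. The letters GATAA, which factors such as GATA4 bind, occurred at 2 positions in Hand2, at 2 positions before 1 of the starts of Mef2c, and in 25.4% of all promoters. The other letters searched were AGGTGT (T-box factors, 13.7% of promoters), AAGTG (NKX2-5, 46.4%) and, for HAND2 and other basic helix-loop-helix factors, the E-box CANNTG (72.3%). The T-box letters were found at 1 start of Mef2c, the NKX2-5 letters in Hand2, Srf and all 3 starts of Mef2c, and the E-box in Hand2, Nkx2-5 and 2 starts of Mef2c. An NKX2-5 match can overlap an E-box. None of the searched motifs matched in Mef2d. The motifs and the promoters shown were chosen after the expression results were known, and a match is a description of sequence. Whether a match relates to expression was not tested.

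On the deposited scale, 7 of the 10 factors were higher in TGAC8 than in WT and none was lower. Hand2 rose the most, followed by Nkx2-5, Tbx20 and Tbx5, and then Mef2d, Gata6 and Srf by smaller amounts. Gata4, Mef2a and Mef2c did not pass the test. Genes were compared with limma on log2(FPKM + 0.1), 2-sided, over the 11544 genes that averaged 0.5 FPKM or more, and called at a Benjamini-Hochberg adjusted p under 0.05. All 10 members passed that filter. Over all tested genes 25.6% were called, 20.9% higher and 4.65% lower, and the median log2 fold change was 0.12, against 0.27 over the 10 members. Because 73.4% of the tested genes had a log2 fold change above 0, libraries were also scaled to their median ratio to the geometric mean library (geometric scaling), which moved the all-gene median to 0.007445. On that scale 5 members were higher (Hand2, Nkx2-5, Tbx20, Tbx5 and Mef2d) and 2 were lower (Mef2a and Mef2c), beside 20.5% of all genes called, 9.74% higher and 10.8% lower. Those 5 were called higher on both scales.

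**Figure D1:**
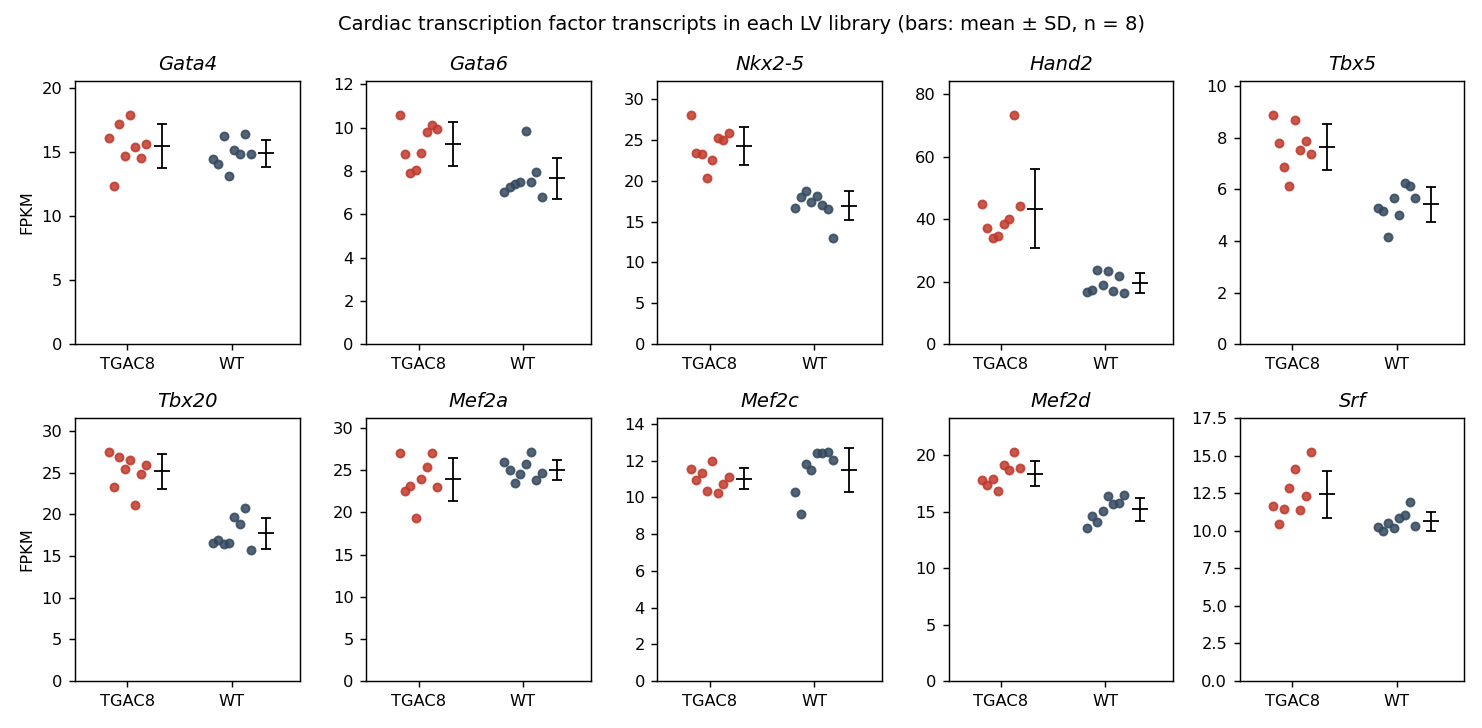
FPKM of each of the 10 factors (y axis, from 0) in the 8 TGAC8 and 8 WT libraries, 1 point per library, with mean ± SD beside the points. TGAC8 and WT points do not overlap for Hand2, Nkx2-5, Tbx20 and Mef2d, and they overlap widely for Gata4, Mef2a and Mef2c.

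In 4 members every TGAC8 library lay above every WT library, namely Hand2, Nkx2-5, Tbx20 and Mef2d. Such a separation of 8 from 8 libraries, higher in TGAC8, was found for 4.79% of all tested genes, and the opposite one for 1.13%.

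Hand2 encodes a basic helix-loop-helix factor that is required for growth of the ventricles in the embryo. Its level in TGAC8 had a lowest value of 34.1, a median of 39.3 and a highest value of 73.3 FPKM, against 16.4, 18.2 and 23.8 FPKM in WT. The genotypes did not overlap, and replicate 7 stood above the other TGAC8 libraries. Means were 43.4 ± 12.7 FPKM in TGAC8 and 19.5 ± 3.17 FPKM in WT (SD, n = 8 each). The log2 fold change was 1.12 (SE 0.136, 95% confidence interval 0.84 to 1.41, limma adjusted p = 1.29e-05), and it was 1.01 with geometric scaling (limma adjusted p = 1.81e-05). Without TGAC8 replicate 7 the log2 fold change was also 1.01 (limma adjusted p = 1.70e-06).

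Nkx2-5 encodes the homeodomain factor that partners with GATA4 and TBX5. TGAC8 libraries spanned 20.4 to 28.0 FPKM with a median of 24.2 FPKM, and WT libraries spanned 12.9 to 18.7 FPKM with a median of 17.2 FPKM. No TGAC8 library fell within the WT range, and the lowest WT library, replicate 8, stood below the rest. The log2 fold change was 0.52 (SE 0.0733, 95% confidence interval 0.36 to 0.67, limma adjusted p = 6.59e-05), and with geometric scaling it was 0.40 (limma adjusted p = 0.000281).

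The T-box factors moved by similar amounts. Tbx20, needed for contractile function of the adult myocyte, spanned 21.2 to 27.5 FPKM in TGAC8 with a median of 25.7 FPKM, against 15.8 to 20.8 FPKM in WT with a median of 16.8 FPKM. Its log2 fold change was 0.51 (SE 0.0659, 95% confidence interval 0.37 to 0.65, limma adjusted p = 2.72e-05). Tbx5, which is required for the conduction system and is mutated in Holt-Oram syndrome in humans, spanned 6.12 to 8.86 FPKM in TGAC8 with a median of 7.65 FPKM, against 4.15 to 6.26 FPKM in WT with a median of 5.48 FPKM. Of the TGAC8 libraries, 7 of 8 lay above the highest WT value of Tbx5. The log2 fold change of Tbx5 was 0.49 (SE 0.0867, 95% confidence interval 0.31 to 0.67, limma adjusted p = 0.000515). With geometric scaling the fold changes were 0.39 for Tbx20 (limma adjusted p = 0.000118) and 0.37 for Tbx5 (limma adjusted p = 0.00213).

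The GATA factors are zinc finger proteins that act on overlapping sites. Gata6 spanned 7.90 to 10.6 FPKM in TGAC8 with a median of 9.31 FPKM, and 6.78 to 9.84 FPKM in WT with a median of 7.44 FPKM. The ranges overlapped, and replicate 5 was the highest WT library. Its log2 fold change was 0.27 (SE 0.0782, 95% confidence interval 0.11 to 0.44, limma adjusted p = 0.0175), and the call was lost with geometric scaling (0.16, limma adjusted p = 0.0916). Gata4 spanned 12.4 to 17.9 FPKM in TGAC8 with a median of 15.6 FPKM, against 13.1 to 16.4 FPKM in WT with a median of 14.9 FPKM, so that the WT range lay inside the TGAC8 range. The difference of Gata4 was 0.05 (SE 0.0676, 95% confidence interval -0.09 to 0.19, limma adjusted p = 0.621), and its sign turned with geometric scaling (-0.07, limma adjusted p = 0.498).

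Among the MADS-box factors, Mef2d was called and the other MEF2 genes were not. Mef2d, the MEF2 protein tied to stress-dependent remodeling in mice, spanned 16.9 to 20.3 FPKM in TGAC8 with a median of 18.3 FPKM, against 13.6 to 16.5 FPKM in WT with a median of 15.3 FPKM. The groups did not overlap, and the log2 fold change of Mef2d was 0.27 (SE 0.0496, 95% confidence interval 0.17 to 0.38, limma adjusted p = 0.000643), or 0.16 with geometric scaling (limma adjusted p = 0.0142). Mef2a, the most abundant MEF2 transcript here, spanned 19.3 to 27.0 FPKM in TGAC8 with a median of 23.5 FPKM, against 23.6 to 27.2 FPKM in WT with a median of 24.9 FPKM. The Mef2a difference of -0.07 (SE 0.0604, 95% confidence interval -0.20 to 0.05) was not called (limma adjusted p = 0.392), whereas with geometric scaling it was -0.19 and called (limma adjusted p = 0.0143). Mef2c, the MEF2 gene needed for formation of the right ventricle in the embryo, spanned 10.3 to 12.0 FPKM in TGAC8 with a median of 11.0 FPKM, against 9.11 to 12.5 FPKM in WT with a median of 11.9 FPKM. Its difference was -0.06 (SE 0.0631, 95% confidence interval -0.19 to 0.08, limma adjusted p = 0.548), and -0.17 with geometric scaling (limma adjusted p = 0.0469).

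Srf encodes serum response factor, which controls actin and contractile genes. It spanned 10.4 to 15.3 FPKM in TGAC8 with a median of 12.0 FPKM, against 9.99 to 11.9 FPKM in WT with a median of 10.4 FPKM. The highest TGAC8 libraries lay beyond the WT range, and the lower ones within it. The log2 fold change was 0.22 (SE 0.0684, 95% confidence interval 0.07 to 0.36, limma adjusted p = 0.0279). This call was lost with geometric scaling (0.10, limma adjusted p = 0.261), without TGAC8 replicate 5 (0.19, limma adjusted p = 0.0579) and without WT replicate 2 (0.20, limma adjusted p = 0.0523).

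**Figure D2:**
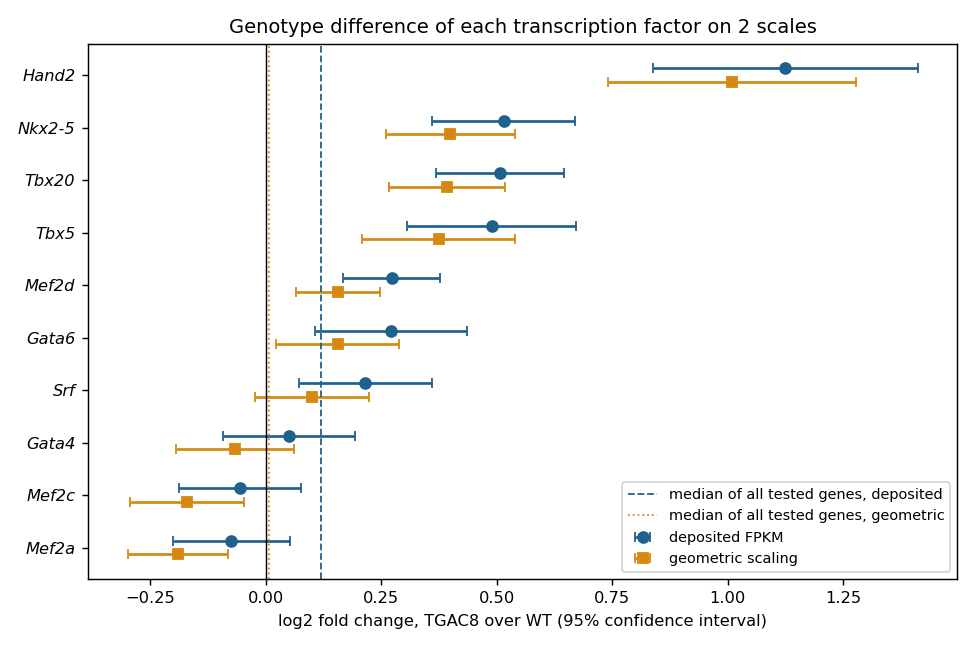
Log2 fold change, TGAC8 over WT, of each factor with its 95% confidence interval from limma (x axis), for deposited FPKM (circles) and after geometric scaling (squares). The dashed line is the median of all tested genes on the deposited scale (0.12) and the dotted line that after scaling; Hand2 lies at 1.12 and 1.01, while Gata4 lies on either side of 0.

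The order of the transcript levels differed by genotype at its top and between Srf and Mef2c. In TGAC8, Hand2 was the most abundant factor in all 8 libraries, followed by Tbx20, Nkx2-5, Mef2a, Mef2d, Gata4, Srf, Mef2c, Gata6 and Tbx5 by mean FPKM. In WT the order was Mef2a, Hand2, Tbx20, Nkx2-5, Mef2d, Gata4, Mef2c, Srf, Gata6 and Tbx5, and Mef2a exceeded Hand2 in 7 of 8 libraries. Srf exceeded Mef2c in 7 of 8 TGAC8 libraries, and Mef2c exceeded Srf in 7 of 8 WT libraries. Neighbors in these orders mostly overlapped between libraries. The ranges did not overlap between Hand2 and Tbx20 in TGAC8, and between Gata4 and Mef2c, Srf and Gata6, and Gata6 and Tbx5 in WT. Tbx20 and Nkx2-5 were each above the other in 4 of 8 libraries in both genotypes. Thus levels spanned 7.64 ± 0.90 (Tbx5) to 43.4 ± 12.7 FPKM (Hand2) in TGAC8, against 5.42 ± 0.678 (Tbx5) to 25.1 ± 1.20 FPKM (Mef2a) in WT (SD, n = 8 each).

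Ratios between relatives were formed inside each library, where the scaling of libraries cancels, and 5 ratios were compared with an exact permutation test, 2-sided, adjusted over the 5. Mef2d gained on both of its relatives. The geometric mean of Mef2d over Mef2a was 0.771 in TGAC8 and 0.605 in WT, a log2 difference of 0.35 (SE 0.0582, exact permutation adjusted p = 0.00194). Mef2d over Mef2c was 1.67 in TGAC8 and 1.32 in WT, a log2 difference of 0.33 (SE 0.0579, exact permutation adjusted p = 0.00194). It ranged from 1.55 to 1.89 in TGAC8 and from 1.19 to 1.60 in WT, where replicate 2 alone lay within the TGAC8 range. Mef2d over Mef2a ranged from 0.661 to 0.872 in TGAC8 and from 0.523 to 0.666 in WT, so that the groups overlapped in the lowest TGAC8 library alone.

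Mef2d made up 34.5% ± 1.35 of the summed FPKM of Mef2a, Mef2c and Mef2d in TGAC8, against 29.3% ± 1.22 in WT. The share of Mef2a averaged 44.8% in TGAC8 (41.5 to 47.9%) and 48.5% in WT (45.8 to 52.1%), and that of Mef2c was 20.7% ± 1.37 in TGAC8 and 22.2% ± 1.74 in WT (SD, n = 8 each). Mef2c over Mef2a differed by 0.02 (SE 0.0835, exact permutation adjusted p = 0.890) and Tbx20 over Tbx5 by 0.01 (SE 0.0978, exact permutation adjusted p = 0.890). Gata6 over Gata4 was 0.597 in TGAC8 and 0.511 in WT, a log2 difference of 0.22 that did not pass (SE 0.103, exact permutation adjusted p = 0.0860). It passed without TGAC8 replicate 3 (0.28, exact permutation adjusted p = 0.0249), without TGAC8 replicate 5 (0.26, exact permutation adjusted p = 0.0458) and without WT replicate 5 (0.27, exact permutation adjusted p = 0.0287).

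**Figure D3:**
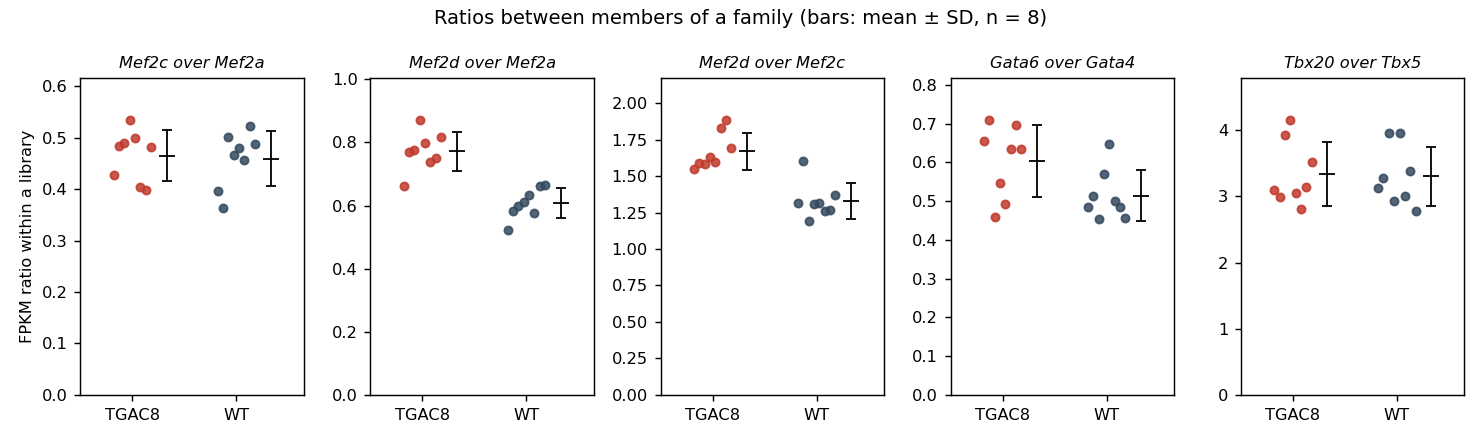
Ratio of FPKM between 2 members of a family within each library (y axis, from 0) for TGAC8 and WT, 1 point per library, with arithmetic mean ± SD beside the points. Mef2d over Mef2a ranged from 0.661 to 0.872 in TGAC8 and from 0.523 to 0.666 in WT, whereas the ratios of Mef2c to Mef2a and of Tbx20 to Tbx5 overlapped throughout.

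Markers of other cell types were measured in the same libraries, since the samples were whole tissue. In bulk tissue, fewer cells of a type cannot be told apart from less RNA per cell. Beside the marker counts below, 20.9% of all tested genes were higher and 4.65% lower, or 9.74% and 10.8% with geometric scaling. The summed FPKM of 15 cardiomyocyte markers was 29597 to 35417 in TGAC8 and 35740 to 38815 in WT, with 1 marker higher (Ryr2), 7 lower and a median log2 fold change of -0.10. With geometric scaling 1 was higher and 11 were lower, with a median of -0.22. Fibroblast markers summed to 421 to 681 FPKM in TGAC8 and 346 to 390 FPKM in WT, with 11 of 12 higher. Macrophage and monocyte markers summed to 114 to 170 FPKM in TGAC8 and 85.8 to 115 FPKM in WT, with 9 of 12 higher. With geometric scaling 11 of the 12 fibroblast markers and 7 of the 12 macrophage and monocyte markers were higher, and none was lower. Of 12 endothelial markers none was called in either direction, and no listed marker was at 0 in all libraries. On the deposited scale 2 of 8 smooth muscle markers, near the all-gene share, and 2 of 6 pericyte markers were higher. With geometric scaling 1 smooth muscle marker was higher and 1 lower, and 1 pericyte marker was higher. Ventricular markers were abundant, with sums of 8251 to 9724 FPKM in TGAC8 and 11591 to 12768 FPKM in WT, and atrial markers summed to 17.6 to 166 FPKM in TGAC8 and 61.3 to 222 FPKM in WT. The part of these shifts in the values of the factors was not tested.

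Each factor was also set against the mean log2 level of the 15 cardiomyocyte markers in the same library. This measure does not depend on library scaling. The same marker mean was subtracted from every factor, so each genotype difference is the deposited one moved by the same amount. That amount raised every difference, since the mean level of the markers was lower in TGAC8. The measure is not separate evidence for the calls, and it was not a test of the cell type shifts. Hand2 was higher in TGAC8 by 1.23 on this log2 scale, Nkx2-5 by 0.62, Tbx20 by 0.61, Tbx5 by 0.60 and Mef2d by 0.38. All 8 TGAC8 libraries lay above all 8 WT libraries for each of these 5 (exact permutation test, 2-sided, adjusted p = 0.000311 over 10 members). Tbx5 overlapped between genotypes in FPKM and separated on this measure only. No share of all genes separated on this measure was formed, so this count has no background beside it. Gata6 was higher by 0.38 (exact permutation adjusted p = 0.000777) and Srf by 0.32 (exact permutation adjusted p = 0.000888). Gata4 differed by 0.16 (exact permutation adjusted p = 0.0616), Mef2c by 0.05 (exact permutation adjusted p = 0.476) and Mef2a by 0.03 (exact permutation adjusted p = 0.524). With the median of the markers in place of their mean, Gata4 (0.34), Mef2c (0.23) and Mef2a (0.21) passed as well (exact permutation adjusted p of 0.000389, 0.00121 and 0.00948). Gata4 also passed on the mean without TGAC8 replicate 2, TGAC8 replicate 7 or WT replicate 7, with differences of 0.20, 0.18 and 0.18.

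Correlations between pairs of factors within genotypes depended on the scale. After genotype means were removed, 41 of 45 pairs had a Pearson r above 0 on the deposited scale, from -0.15 to 0.68, whereas after geometric scaling 23 of 45 did, from -0.59 to 0.62. On the deposited scale 6 pairs had a permutation p under 0.05. All values of a library share its scale. Gata6 and Hand2 were the pair that passed adjustment over the 45 (r = 0.68, permutation p = 0.00057, adjusted p = 0.0257; rho = 0.86, permutation p = 5e-05, adjusted p = 0.00225). Their r was 0.70 in TGAC8 and 0.71 in WT, 0.73 without the 2 libraries farthest from the median of Gata6, and 0.62 after geometric scaling (permutation adjusted p = 0.0230). The adjusted call was lost in 9 of the 16 settings that left out 1 library (r of 0.64 to 0.79), namely without TGAC8 replicates 2, 3, 4 or 5 or WT replicates 1, 2, 5, 6 or 8.

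The mean level of the cardiomyocyte markers also varied with Gata6 (r = 0.86, permutation adjusted p = 0.0002 over 20 relations; rho = 0.87, permutation adjusted p = 0.0007) and with Hand2 (r = 0.71, permutation adjusted p = 0.0445; rho = 0.89, permutation adjusted p = 0.0006). Without the 2 libraries farthest from the median of the markers r was 0.81 for Gata6 and 0.84 for Hand2. After geometric scaling r was 0.32 for Gata6 and 0.42 for Hand2, and neither passed (permutation adjusted p = 0.640 and 0.575). For the fibroblast markers, Srf had r = 0.78 (permutation adjusted p = 0.0445) with rho = 0.50 (permutation adjusted p = 0.240), and Gata4 had r = 0.71 (permutation adjusted p = 0.0502) with rho = 0.54 (permutation adjusted p = 0.198). Without the 2 farthest libraries r was 0.64 for Srf and 0.26 for Gata4, so that the pooled value of Gata4 depended on those libraries. Inside single genotypes r was 0.72 in TGAC8 and 0.82 in WT for Gata4, and 0.80 and 0.66 for Srf. After geometric scaling r was 0.63 for Srf and 0.54 for Gata4 (permutation adjusted p = 0.394 for each). These relations were added after the data were seen.

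Transcripts listed within 10 kb of a member were read from the same fit, also after the data were seen. Hand2 lies next to LOC102636514, whose gene ID RefSeq names Hand2os1, a long noncoding RNA transcribed from the opposite strand. Its listed locus (chr8:57304414-57320859, mm10) ends 123 bases before that of Hand2 (chr8:57320983-57324517). LOC102636514 had 55.8 to 84.7 FPKM in TGAC8 with a median of 66.2 FPKM, against 26.0 to 36.9 FPKM in WT with a median of 30.9 FPKM. No library overlapped between genotypes, and the log2 fold change was 1.08 (SE 0.0798, limma adjusted p = 4.03e-08), or 0.96 with geometric scaling. Within genotypes it followed Hand2 (r = 0.83, permutation adjusted p = 0.00152 over 8 relations; rho = 0.83, permutation adjusted p = 0.00104), with r = 0.84 without the 2 libraries farthest from the median of Hand2 and 0.79 after geometric scaling. GENCODE exons of Hand2 and Hand2os1 share 461 bases on opposite strands, and the use of strand in counting is not stated in the labels or methods. Reads in the shared bases therefore cannot be assigned with certainty. On the other side of Hand2, Gm34030 was at 4.63 ± 1.07 FPKM in TGAC8 and 2.60 ± 1.02 FPKM in WT (SD, n = 8 each), a log2 fold change of 0.86 (limma adjusted p = 0.00662), and it did not vary with Hand2 (r = -0.07, permutation adjusted p = 0.898).

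Gata6 shares its listed locus with 1010001N08Rik, an antisense transcript with 93 exon bases in common in GENCODE. The antisense transcript had 9.97 to 18.6 FPKM in TGAC8 with a median of 12.5 FPKM, against 4.56 to 7.80 FPKM in WT with a median of 5.57 FPKM. The genotypes did not overlap, and the log2 fold change of 1010001N08Rik was 1.17 (SE 0.127, limma adjusted p = 3.90e-06), against 0.27 for Gata6 itself. Within genotypes the relation with Gata6 did not pass (r = 0.26, rho = 0.10, permutation adjusted p = 0.542 and 0.761). Exons of Mef2a share 302 bases with Lysmd4 and those of Mef2d share 531 bases with 1700113A16Rik, each on the opposite strand, so these members carry the same uncertainty. 1700113A16Rik averaged 0.319 FPKM in TGAC8 and 0.0615 FPKM in WT, below the filter, beside 13.6 FPKM of Mef2d in its lowest library.

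**Figure D4:**
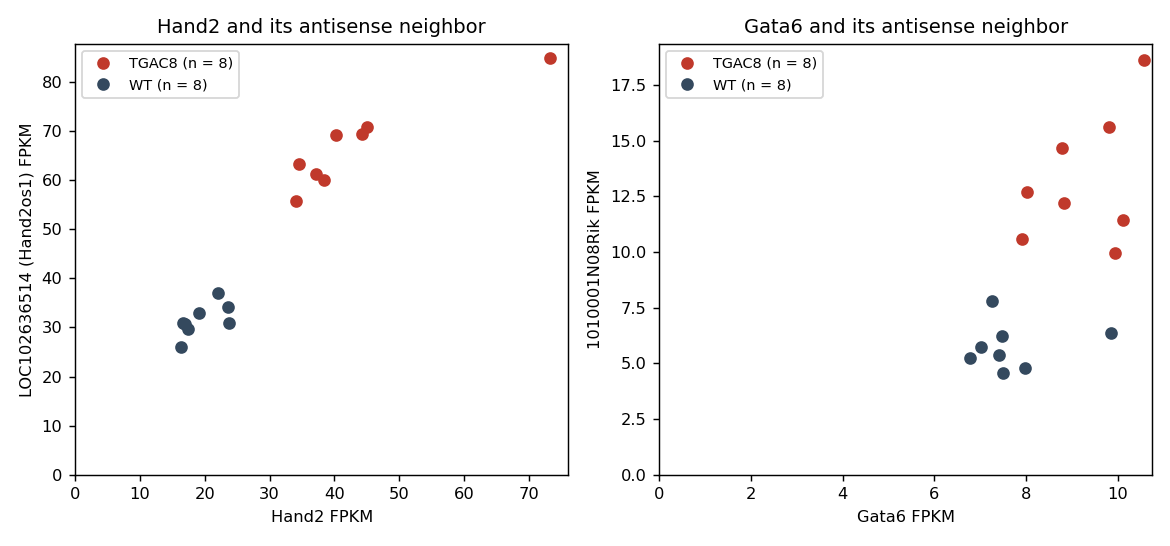
FPKM of Hand2 (left panel) and Gata6 (right panel) on the x axis against FPKM of the antisense transcript beside each on the y axis, 1 point per library, 8 TGAC8 and 8 WT. The TGAC8 libraries lie at 55.8 to 84.7 FPKM of LOC102636514 and the WT libraries at 26.0 to 36.9 FPKM, and Hand2 separates the genotypes where Gata6 does not.

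The genes most like each factor within genotypes were taken from 10210 genes that averaged 1 FPKM or more, over the 16 libraries, as a description. The r values are on the deposited scale, where all values of a library share its scale. They are the highest among 10210 genes, were not tested and were not repeated with geometric scaling. For Hand2 these were Sik1 (r = 0.89), a cAMP-induced kinase that phosphorylates class II histone deacetylases, and Cpeb4 (r = 0.84). Sik1 had a mean of 10.6 FPKM in TGAC8 and 5.29 FPKM in WT, a log2 fold change of 0.97 (limma adjusted p = 9.56e-05). For Mef2a they were Pln (r = 0.91), which encodes the SERCA inhibitor phospholamban, and Fh1 (r = 0.91), a citric acid cycle enzyme. Gata6 was most like Pygm and Ndufa6 (r = 0.89 each), muscle glycogen phosphorylase and a subunit of respiratory complex I. Nkx2-5 was most like Uqcrq (r = 0.91), a subunit of complex III, and Rreb1 (r = 0.88). For the others the highest values were 0.86 for Gata4 (Palmd), 0.85 for Tbx5 (Pde1c), 0.88 for Tbx20 (Slc36a4), 0.83 for Mef2c (Tmem179b), 0.85 for Mef2d (Carhsp1) and 0.89 for Srf (Cdc42bpb).

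Partners and regulators of the factors were read from the same fit. Over all tested genes 20.9% were higher and 4.65% lower, with a median log2 fold change of 0.12. With geometric scaling the all-gene shares were 9.74% and 10.8%. Of 17 cofactors tested, 7 were higher and 1 lower on the deposited scale (median log2 fold change 0.15), whereas with geometric scaling none was higher and 2 were lower. Myocd, the heart and smooth muscle coactivator of SRF, averaged 15.8 ± 1.17 FPKM in TGAC8 and 13.7 ± 0.803 FPKM in WT (0.21, limma adjusted p = 0.00601), Mkl2, a related coactivator, differed by 0.30 (limma adjusted p = 0.0136) and Ep300, a histone acetyltransferase, by 0.20 (limma adjusted p = 0.00487). Smarcd3, a subunit of the BAF chromatin remodeling complex (0.15), Wwtr1, the YAP-related coactivator TAZ (0.21), Nfatc1 (0.26) and Camta2 (0.19) were the others called higher. None of these 7 passed with geometric scaling. Of the 16 settings that left out 1 library, the call of Camta2 was lost in 7 and that of Nfatc1 in 1. Nfatc2, a calcineurin-dependent factor, was the cofactor called lower on the deposited scale (-0.33, limma adjusted p = 0.00618).

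Of 14 repressors and competitors, 3 were higher and 1 lower (median 0.15), beside 20.9% and 4.65% of all tested genes. The higher share was thus near that of all genes. With geometric scaling none was higher and 4 were lower, beside 9.74% and 10.8% of all genes. Hdac9, a class II histone deacetylase that holds MEF2 inactive, averaged 4.13 ± 0.659 FPKM in TGAC8 and 5.67 ± 0.483 FPKM in WT (SD, n = 8 each), a log2 fold change of -0.46 (limma adjusted p = 0.00138). Cabin1, another MEF2 repressor, differed by 0.32 (limma adjusted p = 0.0290) and Foxo4 by 0.17 (limma adjusted p = 0.0214), calls that were lost with geometric scaling. The Cabin1 call was also lost in 6 of the 16 settings that left out 1 library. Hdac4 (0.16) and Hdac7 (0.12) did not pass on either scale, and Hdac5 (-0.07) did not pass on the deposited scale but was called lower with geometric scaling (-0.18, limma adjusted p = 0.0490). Of 11 kinases that act on the factors, Mapk3 (ERK1, 0.39, limma adjusted p = 0.00267) and Gsk3b (0.18, limma adjusted p = 0.00492) were higher and Camk2d, the main CaM kinase II of the heart, was lower (-0.24, limma adjusted p = 0.00598). The share of the kinases called higher was near that of all genes too. Prkaca, the catalytic subunit of protein kinase A, differed by -0.01 on the deposited scale (limma adjusted p = 0.917), and by -0.12 with geometric scaling, where it was called lower (limma adjusted p = 0.0251). On that scale the call for Gsk3b was lost, and of the 11 kinases 1 was higher and 3 were lower.

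Of 16 other cardiac transcription factors tested, 3 were higher and 4 lower, with a median log2 fold change of 0.00. Over all tested genes 20.9% were higher and 4.65% lower, with a median of 0.12. Irx3 (-0.41, limma adjusted p = 0.00628) and Irx5 (-0.35, limma adjusted p = 0.00861), which pattern the ventricular conduction and repolarization gradients, were lower, as were Mitf (-0.27, limma adjusted p = 0.000904) and Meis1 (-0.21, limma adjusted p = 0.0221), a regulator of myocyte cell cycle exit in mice. Foxp1 (0.40, limma adjusted p = 0.00198), Klf13 (0.31, limma adjusted p = 0.0152) and Nr2f2 (0.24, limma adjusted p = 0.0372) were higher on the deposited scale, and Foxp1 alone of these kept its call with geometric scaling. Isl1, Hand1, Gata5 and Mef2b were not analysed here.

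**Figure D5:**
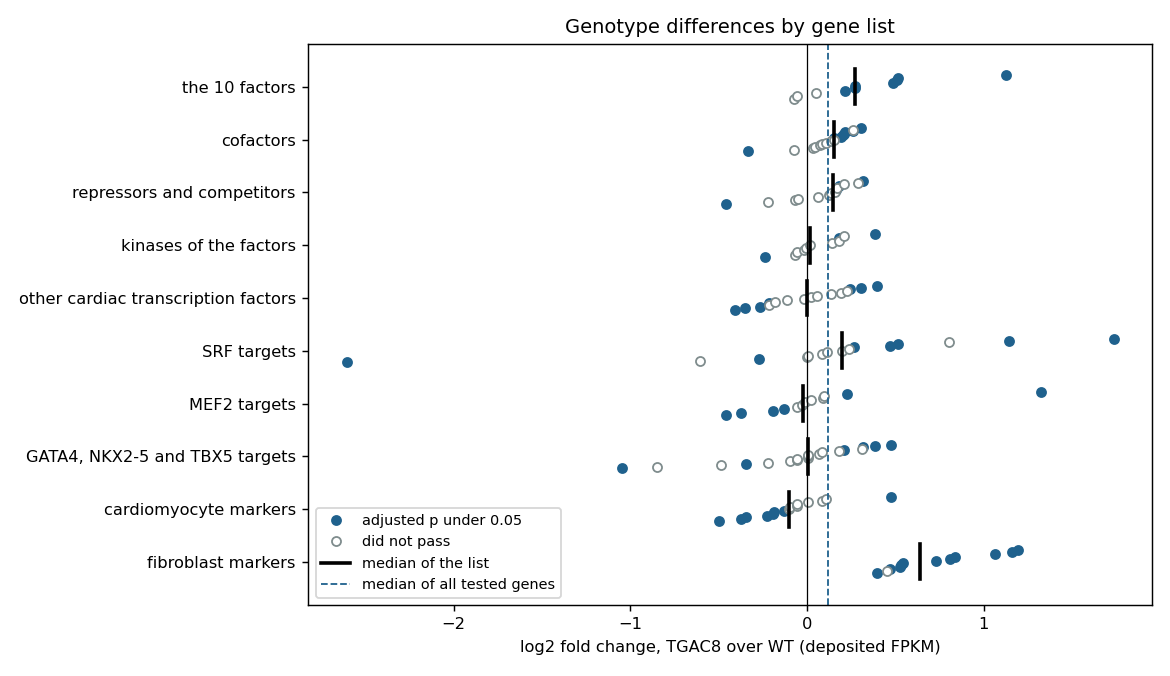
Log2 fold change, TGAC8 over WT, on the deposited scale (x axis) of every tested gene in each list (rows), filled where the limma adjusted p was under 0.05, with the median of each list as a black bar and the median of all tested genes (0.12) as a dashed line. The median of the 10 factors lies at 0.27, that of the other cardiac transcription factors at 0.00 and that of the fibroblast markers at 0.64.

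Known targets of the factors were called in both directions, beside 20.9% of all tested genes higher and 4.65% lower. With geometric scaling these all-gene shares were 9.74% and 10.8%. Of 15 SRF targets, 5 were higher and 2 lower (median log2 fold change 0.20), or 4 and 2 with geometric scaling. Fhl1, a LIM protein of the sarcomere, averaged 54.4 ± 8.27 FPKM in TGAC8 and 16.1 ± 1.26 FPKM in WT, a log2 fold change of 1.74 (limma adjusted p = 1.65e-10). Acta2, smooth muscle α-actin, differed by 1.14 (limma adjusted p = 0.000106), Filip1l by 0.51 (limma adjusted p = 3.10e-05), Junb by 0.47 (limma adjusted p = 0.00493) and Flna, a filamin that crosslinks actin, by 0.26 (limma adjusted p = 0.0102), the last of which was not called with geometric scaling. Acta1, skeletal α-actin, ran the other way, with 1.84 to 39.9 FPKM in TGAC8 and 31.2 to 190 FPKM in WT (-2.60, limma adjusted p = 0.00253), and Tpm1, cardiac tropomyosin, was lower by a smaller amount (-0.27, limma adjusted p = 0.00260). Tagln, Vcl and Myh11 did not pass, and Acta2 and Myh11 are also smooth muscle markers.

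Of 12 MEF2 targets, 2 were higher, a share near that of all genes, and 4 were lower (median -0.02). The lower share was above the 4.65% of all genes. With geometric scaling 2 were higher and 6 lower, beside 9.74% and 10.8% of all genes. Nr4a1, an immediate early nuclear receptor, spanned 2.34 to 16.6 FPKM in TGAC8 and 1.38 to 6.62 FPKM in WT (1.32, limma adjusted p = 0.0254), a call that was lost without TGAC8 replicate 5, TGAC8 replicate 7 or WT replicate 8 (limma adjusted p of 0.0508, 0.0507 and 0.0510). Smyd1, a muscle histone methyltransferase, was at 53.8 ± 4.05 FPKM in TGAC8 and 45.9 ± 2.57 FPKM in WT (0.23, limma adjusted p = 0.00273). Myl2 (-0.37), Mb (-0.19), Ckm (-0.13) and Hdac9 were lower, of which the first 3 are also in the cardiomyocyte marker list.

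Of 19 targets of GATA4, NKX2-5 and TBX5, 4 were higher and 2 lower (median 0.00), the higher share again near that of all genes. Ryr2, the calcium release channel, averaged 205 ± 20.9 FPKM in TGAC8 and 146 ± 8.40 FPKM in WT (0.48, limma adjusted p = 1.23e-05). Corin, the protease that processes pro-atrial natriuretic peptide, was also higher (0.32, limma adjusted p = 4.73e-05), as was Myocd on the deposited scale. Nppb, which encodes B-type natriuretic peptide, was at 26.6 to 95.8 FPKM in TGAC8 and 90.1 to 209 FPKM in WT (-1.05, limma adjusted p = 0.00489), and Tnnc1, troponin C, was lower by 0.35 (log2 fold change -0.35, limma adjusted p = 3.08e-05). Nppa (-0.85, limma adjusted p = 0.113) and Atp2a2, the SERCA pump (0.00, limma adjusted p = 0.966), did not pass. With geometric scaling 3 of the 19 were higher and 7 lower, beside 9.74% and 10.8% of all genes.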

How the data were processed

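Left ventricular RNA was made into 16 libraries, 8 TGAC8 and 8 WT, with a stranded total RNA kit and sequenced from a single end. Per the submitters' processing notes, reads were aligned to mm10 with TopHat2 2.1.1 and quantified with Cufflinks 2.1.1. The methods of the study add that the human ADCY8 cDNA was part of the reference. Neither the labels nor the methods name the annotation, or say if strand entered the counting. The deposited values are FPKM per gene and library, as made by the authors, for 11811 genes. The table also holds the authors' own comparison made with Cuffdiff (group means in FPKM, log2 fold changes, a test statistic or score, p-values and q-values), which was not used. In 2 rows a spreadsheet date stands in place of a gene name, and these rows were kept in the fits. The methods of the study give a range of reads per library. The depth of each library is not stated, so no interval for counting error was formed. Summed FPKM was 314283 to 374087 in TGAC8 and 356854 to 407506 in WT.

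The 11544 genes that averaged 0.5 FPKM or more were put on the log2(FPKM + 0.1) scale and fitted in R 4.3.3 by limma 3.58.1, allowing a trend of variance with level, no covariate and Benjamini-Hochberg adjustment. Fold changes are on the log2(FPKM + 0.1) scale, which understates changes of low genes. Groups and replicate numbers were taken from the sample labels. Ratios and levels relative to markers were compared with exact permutation tests, whose smallest p for 8 against 8 is 0.000155, and correlations with 100000 permutations within genotype. The fit was tested on simulated data with known changes. Members and gene lists were chosen with earlier results of these data known. The genes named were every member, the 2 genes most like it, and list genes that passed the test, with a few that did not as examples, some of these chosen after their values were seen. A few list genes are not reported here. Alternatives were pseudocounts of 1 and 0.01, no filter, a minimum mean of 1 FPKM, geometric scaling, no variance trend, a replicate block, and leaving out each library.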

Additional observations from a re-analysis of the deposited data

Results flagged for a closer look

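In 34 groups of 8 libraries (members, family ratios and the antisense transcripts of Hand2 and Gata6, by genotype), 4 held a library set apart from the others by a gap larger than Dixon's 95% critical value. Chance alone gives such a gap in about 1 in 20 groups. Hand2 in TGAC8 replicate 7 was at 73.3 FPKM, with the next library at 45.0 FPKM. Gata6 in WT replicate 5 was at 9.84 FPKM, with the next at 7.97 FPKM, and without that library the log2 fold change of Gata6 was 0.32 (limma adjusted p = 0.00223). Nkx2-5 in WT replicate 8 was at 12.9 FPKM, below the next at 16.5 FPKM, and without it the log2 fold change of Nkx2-5 was 0.46 (limma adjusted p = 4.01e-05). The ratio of Mef2d to Mef2c in WT replicate 2 was 1.603, with the next at 1.37, and without it the log2 difference was 0.37 (exact permutation adjusted p = 0.000777).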

How the results depend on the processing

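Of 240 values of the members under alternatives, 229 kept their direction and their side of the threshold, and Hand2, Nkx2-5, Tbx20, Tbx5 and Mef2d kept theirs in all 24 settings each. Geometric scaling moved the most: 1124 genes were called higher and 1244 lower, 2 members were lower, and Gata4 turned to -0.065. With geometric scaling and the replicate block together, added after the data were seen, 1942 genes were called (920 higher, 1022 lower), 1 member was lower (Mef2a, limma adjusted p = 0.0321) and Gata4 was at -0.065. The replicate block alone gave 2444 genes called and the same count of 7 members higher, and no member changed its call. The labels do not say if library numbers pair the libraries. Deviations of same-numbered libraries correlated at -0.06 to 0.01, which cannot show how animals or batches were matched. Leaving out each library gave 2530 to 3131 genes called and 6 to 7 members called. The differences of Mef2c over Mef2a ranged from -0.028 to 0.049, of Tbx20 over Tbx5 from -0.034 to 0.052 and of Gata6 over Gata4 from 0.19 to 0.28. Gata4 relative to the cardiomyocyte markers ranged from 0.12 to 0.20, and 0 to 1 pairs of members passed. With the median of those markers Gata4 was at 0.34, Mef2a at 0.21 and Mef2c at 0.23. The cause of these changes was not tested. Of 1727 values of 72 other named genes, 1614 kept direction and call, and none turned direction. Depth is known only as a range over the libraries, which limits statements on low genes.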
